A study of Saccharomyces cerevisiae with 15 samples.

Results

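The comparison described here set NET-seq libraries from yeast lysate treated with MnCl2 and DNase I against libraries from untreated lysate, at every nucleotide of the 35S gene. Its members were chosen by treatment label alone: 3 MnCl2 + DNase I libraries and 3 untreated libraries, 6 of the 15 in the series, each with a value at 6858 positions. In NET-seq (native elongating transcript sequencing) the 3′ ends of RNA that copurifies with a polymerase, here RNA polymerase I (Pol I), are sequenced, so a read marks the last base a polymerase had added, and occupancy is the read level at a position. Treated lysate received 10 mM MnCl2 and 100 U/mL DNase I, sat on ice for 20 minutes, then received 5 mM EDTA and sat on ice for another 30 minutes. Untreated lysate received none of these. All groups came from wild-type *Saccharomyces cerevisiae*. The study's methods describe capture of Pol I through a tag on its subunit Rpa135 in the wild-type strain, and do not mention the treated libraries. The treated and untreated groups therefore differ in cation, nuclease, incubation and EDTA, which cannot be told apart in this pair. Another group, MnCl2 without the nuclease (3 libraries), differs from the treated group in DNase I alone, and its values are given for some of the results. The study's methods give a culture for each replicate of the untreated strain, the labels do not say whether the 3 treated libraries came from separate cultures, and p-values measure the spread between these libraries.

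Pol I makes a single long precursor that holds the 18S, 5.8S and 25S ribosomal RNAs, separated and flanked by spacers. ETS1 precedes 18S, ITS1 and ITS2 lie on either side of 5.8S, and ETS2 follows 25S. The spacers are cut out and degraded as the precursor matures, so reads there come from the nascent precursor and its processing intermediates, while mature rRNA that copurifies with Pol I can also give reads within the rRNA genes and at their ends. DNase I cuts DNA and needs a divalent cation, and EDTA binds such cations. Rnt1, an RNase III, cuts the precursor in ETS2, and T1 is the terminator where Pol I is mostly released.

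The 35S gene used in the tables is RDN37-2, chromosome XII, 460712 to 467569 on the minus strand of R64, and position 1 is its 5′ end. ETS1 spans positions 1 to 700, 18S 701 to 2500, ITS1 2501 to 2861, 5.8S 2862 to 3019, ITS2 3020 to 3251, 25S 3252 to 6647 and ETS2 6648 to 6858. The gene is repeated in the genome, so each value is a sum over copies. All 9 libraries of the 3 groups were listed at 0 at 9 positions, 3 at each 3′ end of 18S, 5.8S and 25S.

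The results turned on 2 kinds of sequence, the edges of the mature rRNAs and the sites that lost the most occupancy in each region. The bases around the 3 mature 3′ ends are shown first, as the RNA strand from the tables, with capitals for each position called higher in MnCl2 + DNase I libraries. The 3 lower-case bases between the blocks of capitals are the ones listed at 0.
18S and ITS1, positions 2484 to 2516 (chrXII:465054-465086): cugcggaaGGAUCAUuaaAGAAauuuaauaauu
5.8S and ITS2, positions 3003 to 3035 (chrXII:464535-464567): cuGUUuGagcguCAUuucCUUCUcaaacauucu
25S and ETS2, positions 6632 to 6664 (chrXII:460906-460938): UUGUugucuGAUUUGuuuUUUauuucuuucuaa

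Sites with the largest losses of their regions are shown next because many of them shared a short feature. The 14 falls, 2 in each region, had log2 changes from -8.07 in ETS1 to -1.90 in 5.8S. Of these, 7 had the bases CG just before the last incorporated base. The 2 of ETS1, among them the largest fall of any position, and the 2 of ETS2 did not. In the 7 with CG, shown here, the capitals mark CG and the last incorporated base.
1899, in 18S (chrXII:465661-465686): auuugacucaacaCGGggaaacucac
2617, in ITS1 (chrXII:464943-464968): gcgcuuaagugcgCGGucuugcuagg
2659, in ITS1 (chrXII:464901-464926): uugcuauuccaaaCGGugagagauuu
2978, in 5.8S (chrXII:464582-464607): ugaacgcacauugCGCcccuugguau
3150, in ITS2 (chrXII:464410-464435): uauaaugcaaguaCGGucguuuuagg
3903, in 25S (chrXII:463657-463682): ccgucuugaaacaCGGaccaaggagu
5891, in 25S (chrXII:461669-461694): cacaucuguuaaaCGAuaacgcagau

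Depth on the 35S gene was 3513666 to 4936238 reads in MnCl2 + DNase I libraries and 4917851 to 6885174 in untreated ones, recovered from the deposited CPM (reads scaled to 1e6 per library). The spacers held 39321 to 52376 reads per treated library and 348692 to 475760 per untreated library. Spacer values are thus less precise in the treated group, and 84 spacer positions outside the stretches at 0 had no read in any of its 3 libraries, against 1 position in the untreated group.

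The spacers held a smaller share of occupancy after treatment. All 4 spacers together held 1.12%, 1.13% and 1.06% of the 35S signal in the 3 MnCl2 + DNase I libraries, against 6.91%, 6.54% and 7.09% in the untreated ones. The means were 1.10% ± 0.0382 and 6.85% ± 0.279 (SD, n = 3 each), a 6.20-fold lower share with treatment. ETS1 carried most of this difference: its share was 0.128%, 0.116% and 0.127% in treated libraries, against 4.31%, 3.99% and 4.40% in untreated ones, or 34.3-fold lower. The other spacers lost less. ITS1 held 0.308% ± 0.0387 in treated and 1.12% ± 0.0591 in untreated libraries, ITS2 0.556% ± 0.0265 and 1.06% ± 0.0219, and ETS2 0.117% ± 0.00302 and 0.437% ± 0.0361 (SD, n = 3 each). The rRNA genes took up the rest, with 18S at 32.4% and 30.6%, 5.8S at 3.79% and 3.52%, and 25S at 62.7% and 59.1% in treated and untreated libraries. The groups did not overlap in any of the 7 regions. Each region gave p = 0.1 in an exact two-sided permutation test of the log2 share (0.1 after adjustment over the 7 regions), the smallest value that 3 libraries against 3 allow.

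What remained in the spacers was distributed differently. ETS1 made up 11.2% ± 0.881 of the spacer signal in MnCl2 + DNase I libraries and 61.8% ± 0.679 in untreated libraries, while ITS2 made up 50.4% ± 2.39 and 15.5% ± 0.952 (SD, n = 3 each). ITS1 held 27.8% in treated and 16.3% in untreated libraries, and ETS2 10.6% and 6.38%. As shares of the spacer sum, the directions of ITS1, ITS2 and ETS2 were thus the opposite of those they had as shares of the whole gene, with exact permutation p = 0.1 for each.

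Windows of 100 positions showed where along the gene the loss lay. Of 71 windows, 57 were called at an adjusted p below 0.05 by limma (80.3% of windows tested), 25 higher (35.2%) and 32 lower (45.1%) in MnCl2 + DNase I libraries. None of the 17 spacer windows was called higher and 16 were called lower. All 7 windows of ETS1 fell, by log2 changes of -5.53 to -4.75, a narrow range over a 700-nucleotide spacer. The fall was uneven in the other spacers. In ITS1 the log2 change was -1.11 ± 0.10 (SE) at 2501 to 2600 and -1.85 ± 0.07 at 2701 to 2800, against -3.71 ± 0.10 at 2601 to 2700 and -4.01 ± 0.11 at 2801 to 2861. In ITS2 the window next to 5.8S, 3020 to 3119, held 4837, 5394 and 5041 CPM in treated libraries against 5429, 5790.5 and 5285 CPM in untreated ones and was not called (limma adjusted p = 0.0861). The following ITS2 window fell by 3.56 on the log2 scale (limma adjusted p = 1.45e-18).

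**Figure D1:**
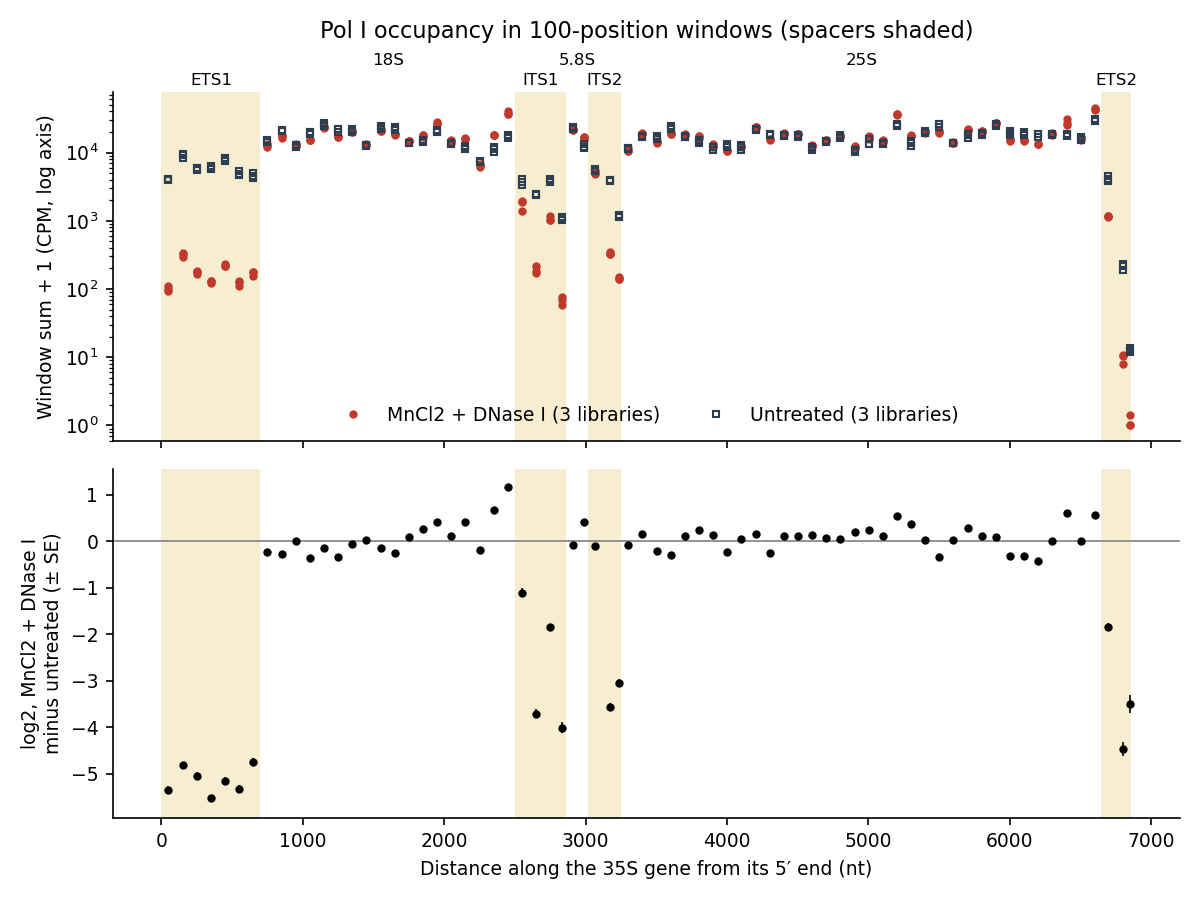
Sums of occupancy in windows of 100 positions along the 35S gene. The upper panel plots each of the 3 MnCl2 + DNase I libraries (filled red circles) and the 3 untreated libraries (open squares) on a log axis after adding 1 CPM, and the lower panel plots the log2 change with its SE. The 7 ETS1 windows lie between -5.53 and -4.75, whereas windows of the rRNA genes lie between -0.43 and 1.16.

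Within the rRNA genes the windows changed by less than those of ETS1 and went in both directions. The window with the largest rise was the last one of 18S, 2401 to 2500, with 37105, 37273 and 40445 CPM in treated libraries against 18222, 16060.3 and 17066 CPM in untreated libraries (log2 change 1.16 ± 0.05 SE). Its means were 38274 and 17116 CPM. Of these, 30082 CPM in treated and 9349.6 CPM in untreated libraries lay in the last 15 positions before the stretch at 0. Of the 18 windows of 18S, 7 rose and 8 fell, and the 34 windows of 25S had 17 rises and 8 falls. The direction of the smaller changes depends on how libraries are scaled. Median-ratio scaling shifted the whole comparison upward by 0.20 on the log2 scale and gave 38 windows higher and 21 lower.

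At single positions, 5173 of the 6833 tested (75.7%) were called by limma on log2(CPM + 1), 1880 higher (27.5%) and 3293 lower (48.2%). The 6 libraries separated without overlap at 5331 of the tested positions (78.0%). The split between directions was not the same across regions. In ETS1, 673 of 693 tested positions fell and 0 rose, with a median log2 change of -3.64. ITS1 had 348 falls and 5 rises (median -2.49), ITS2 217 and 5 (median -2.25), and ETS2 179 and 3 (median -1.82). In 18S, 612 positions rose and 674 fell (median -0.03), in 5.8S 63 rose and 54 fell (median 0.11), and in 25S 1192 rose and 1148 fell (median 0.03), beside a median of -0.24 over all positions tested. Under median-ratio scaling 2510 positions were higher and 2774 lower, so that rises made up 47.5% of calls in place of 36.3%. The spacer calls kept their direction: 1406 of the 1417 falls and all 13 rises were called the same way under both scalings. Scaled instead to each library's own spacer sum, which sets the spacer totals equal, 194 spacer positions were higher and 871 lower, and in the rRNA genes 5272 were higher and 28 lower.

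**Figure D2:**
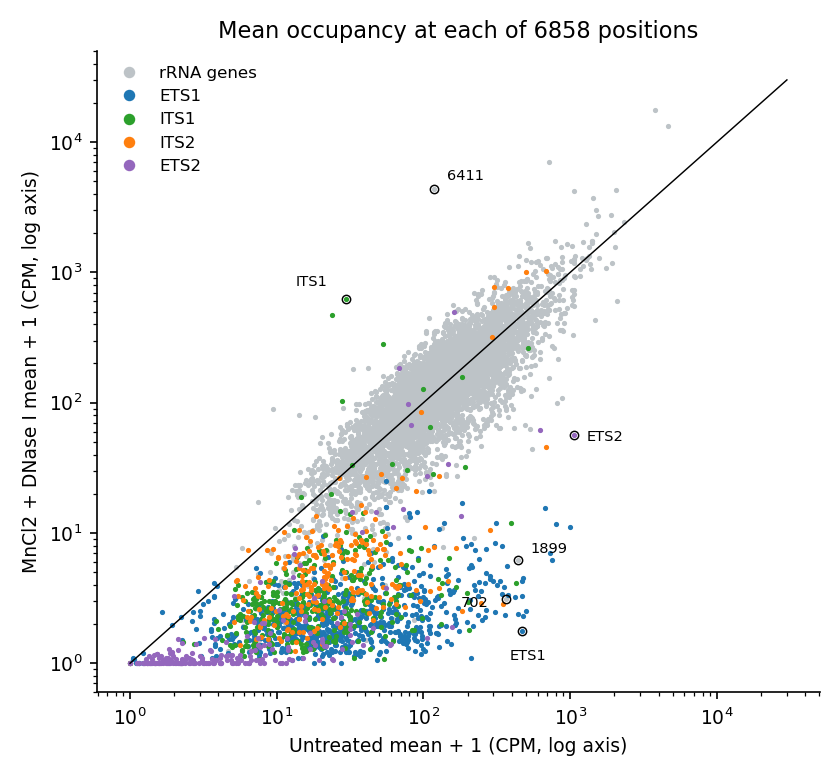
Mean occupancy at each of the 6858 positions, MnCl2 + DNase I (vertical) against untreated (horizontal), both after adding 1 CPM and on log axes, with the line of equal values. Grey points are positions of the rRNA genes and coloured points those of the spacers. ETS1 positions lie far below the line, the G behind 18S at chrXII 465067 and position 6411 of 25S lie far above it. Circled points are described in the text: those labelled ETS1, ITS1 and ETS2 are the A at chrXII 467375, the G at 465067 and the U at 460908, and the others carry their position.

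In ETS1, the 5′ spacer, the most occupied untreated sites had few reads after treatment. The A at chrXII 467375 had 0.569, 1.14 and 0.608 CPM in MnCl2 + DNase I libraries, against 477, 451 and 485 CPM in untreated libraries. This was the largest fall of any position, a log2 change of -8.07 ± 0.16 (SE; limma adjusted p = 3.00e-12), and it rested on 10 reads in all 3 treated libraries. Position 419 had 0.569, 2.96 and 1.01 CPM in treated and 549, 416 and 526 CPM in untreated libraries. The groups were far apart at both sites, and a lack of overlap was a condition for naming them as largest falls. The bases at these sites, with the last incorporated base in capitals, are shown because they lost the most.
The A at 467375 (chrXII:467365-467390): gagauacaauuugggAagaaauuccc
419 (chrXII:467141-467166): gauaucaaacguaccAuuccgugaaa

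The 4 ETS1 positions among the 5 most occupied spacer positions of untreated libraries fell by less. Position 232 had 9.96, 10.5 and 10.1 CPM in treated libraries against 1105, 852 and 1019 CPM in untreated ones (log2 change -6.46 ± 0.11). Position 102 had 10.8 ± 1.23 CPM in treated and 801 ± 77.3 CPM in untreated libraries (SD, n = 3 each), position 336 had 5.18 ± 1.80 and 749 ± 111 CPM, and position 405 had 6.05 ± 1.17 and 724 ± 133 CPM. These sites were 74.4-fold to 145-fold lower with treatment, each with no overlap between groups. The first 50 positions of ETS1, next to the promoter, summed to 21.5 CPM in treated and 1480.2 CPM in untreated libraries, 68.9-fold lower. Of 43 tested positions 39 were called lower (median log2 change -3.74), beside 673 of 693 over all of ETS1 (median -3.64).

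The profile inside ETS1 changed as well as its total. When each library was rescaled to the same sum in each region, 4550 of 6833 positions (66.6%) were still called, 1802 higher (26.4%) and 2748 lower (40.2%), and in ETS1 258 rose and 168 fell relative to the rest of the spacer. The largest rises relative to the rest of ETS1 were at positions whose own level was still lower in treated libraries. Position 107 had 26.5, 23.9 and 21.3 CPM in treated libraries against 71.9, 31.9 and 59.4 CPM in untreated libraries, a within-region log2 change of 3.96 ± 0.24, and position 340 had 3.98, 6.38 and 4.66 CPM against 12.8, 9.62 and 10.8 CPM, a within-region change of 3.82 ± 0.22 (limma adjusted p = 6.06e-06). Both were chosen after their values were seen. The signal was also spread more evenly: 50% of ETS1 signal lay in 109, 108 and 108 positions in treated libraries, against 70, 75 and 75 in untreated ones (exact permutation p = 0.1).

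The last incorporated base also differed between groups. Over all 4 spacers, adenine was the last base for 23.8% ± 1.21 of the signal in treated and 38.6% ± 0.781 in untreated libraries, guanine for 12.1% ± 1.01 and 26.1% ± 0.291, and uracil for 39.1% ± 1.07 and 22.3% ± 0.464 (SD, n = 3 each). The next base was guanine for 10.9% of this signal in treated and 29.3% in untreated libraries, and uracil for 39.1% and 35.9%. All 8 shares gave exact permutation p = 0.1 (0.1 adjusted over the 8). With MnCl2 alone adenine was the last base for 23.1% ± 0.745, guanine for 12.0% ± 0.459 and uracil for 40.3% ± 0.602 (SD, n = 3). Without the 30 positions behind the mature 3′ ends, described further on, most of the adenine difference was gone: adenine was the last base for 38.3% ± 0.310 of the signal in treated and 40.1% ± 0.651 in untreated libraries, guanine for 17.6% and 27.5%, and uracil for 28.1% and 20.5%. The next base was then uracil for 28.1% in treated and 35.2% in untreated libraries, the opposite direction. ETS1, which holds no mature 3′ end, was then taken alone, an alternative added after seeing the data. Adenine was the last base for 32.0%, 31.9% and 33.5% of ETS1 signal in MnCl2 + DNase I libraries, against 40.8%, 39.9% and 40.7% in untreated libraries. Uracil was the last base for 27.3%, 25.6% and 26.1% of the signal in treated libraries, against 17.8%, 18.1% and 17.8% in untreated ones. Adenine makes up 28.0% of ETS1 positions and uracil 30.1%, so the treated profile lay nearer to the base composition. The base to be added next was guanine for 26.2% ± 0.821 of ETS1 signal in treated and 33.0% ± 0.661 in untreated libraries (SD, n = 3 each). Every one of these shares gave exact permutation p = 0.1 with no overlap between groups. Guanine as the last base differed by less, at 28.1% ± 1.33 in treated and 30.7% ± 0.298 in untreated libraries.

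**Figure D3:**
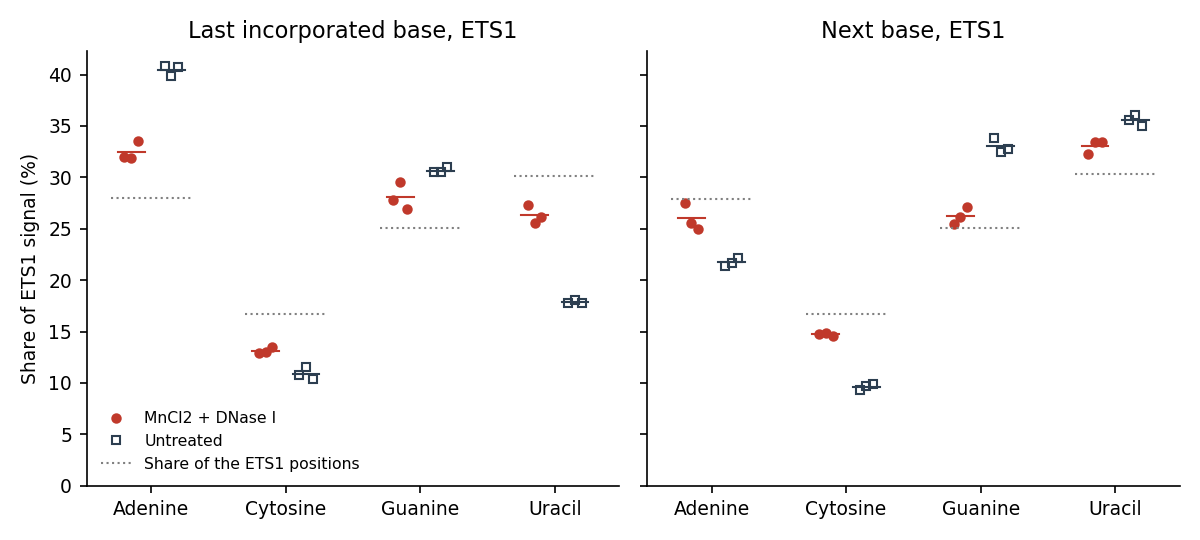
Share of ETS1 signal by the last incorporated base (left) and by the base to be added next (right), in percent. Filled red circles are the 3 MnCl2 + DNase I libraries, open squares the 3 untreated libraries, short lines the group means and dotted lines the share of the 700 ETS1 positions with that base. Adenine as the last base averages 32.4% with treatment and 40.5% without it.

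Positions preceded by CG, the feature of the 7 sequences shown above, held a smaller share of the signal in treated than in untreated libraries in all 3 classes of region. The letters CG were searched on the RNA strand as the 2 bases before the last incorporated one. This feature was noticed among the largest falls after the values were seen, so its shares are a description with no test, and it precedes 4.33% of all positions. In ETS1, CG-preceded positions held 3.89%, 4.24% and 3.53% of the signal in treated libraries, against 11.3%, 10.7% and 10.0% in untreated libraries. With MnCl2 alone they held 3.43%, 3.82% and 3.57% there. In ITS1, ITS2 and ETS2 together they held 0.431%, 0.432% and 0.466% in treated libraries, against 8.77%, 8.37% and 7.45% in untreated ones. In 18S and 25S the shares were 4.22% ± 0.0421 and 5.86% ± 0.196 (SD, n = 3 each). The share in the other spacers depends on the positions behind the mature 3′ ends, which are part of the total. Without those positions it was 1.57% in treated and 9.53% in untreated libraries, and without the 14 largest falls by region as well 1.37% and 5.55%. Without these 14 falls the shares were 3.90% and 10.9% in ETS1 and 4.22% and 5.81% in 18S and 25S. Positions preceded by GG also held less, with 10.8% in treated and 17.8% in untreated libraries in ETS1, 9.79% and 12.0% in 18S and 25S, and 1.40% and 5.86% in the other spacers (4.94% and 6.81% without the positions behind the mature 3′ ends). Among the 16 possible pairs of preceding bases, CG had the lowest median within-region change in each class, at -1.17 in ETS1 (all positions 0.25), -3.54 in the other spacers (all positions -1.37) and -0.39 in 18S and 25S (all positions -0.08). The medians of GG were -0.56 in ETS1, -1.97 in the other spacers and -0.31 in 18S and 25S. Its ranks among the 16 pairs were 2, 4 and 3. These medians and ranks include the falls among which CG was noticed, and 5.8S is in none of the 3 classes.

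The few rises in the spacers adjoined the mature rRNAs. Of 13 spacer positions called higher, 12 lay in the 10 positions that follow the stretch at 0 behind each mature 3′ end, a list of 30 positions of which 12 rose, 13 fell and 5 were not called (median log2 change 0.01). These 30 positions summed to 7033 CPM in MnCl2 + DNase I and 3641 CPM in untreated libraries, which was 63.7% and 5.33% of the spacer signal.

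Behind 18S, positions 2502 to 2505 rose. The second of them, a G at chrXII 465067, had 723, 668 and 488 CPM in treated libraries against 29.5, 24.9 and 31.1 CPM in untreated libraries, 22.0-fold higher (log2 change 4.40 ± 0.14, limma adjusted p = 3.55e-11). Position 2502 had 468 ± 91.6 and 22.8 ± 1.23 CPM (SD, n = 3 each). Treated libraries were far above every untreated library at both positions, and a lack of overlap was a condition for naming them as largest rises. With MnCl2 alone the G at 465067 held 1091, 676 and 797 CPM.

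Behind 5.8S, all 5 positions that follow the stretch at 0 rose by less, and their untreated level was higher. Position 3021 had 752, 816 and 726 CPM in treated libraries against 293, 339 and 272 CPM in untreated libraries (log2 change 1.35 ± 0.10). The last of these 5, a U at chrXII 464545 with the highest treated mean of any spacer position, had 984, 1075 and 993 CPM against 654, 751 and 656 CPM (log2 change 0.57 ± 0.10, limma adjusted p = 1.44e-04). The groups did not overlap at either position, which at 3021 was a condition for naming it as a largest rise. The other 2 of the 5 most occupied spacer positions there, 3024 and 3023, had 1011 ± 96.8 and 756 ± 40.5 CPM in treated libraries and 496 ± 30.7 and 378 ± 26.4 CPM in untreated libraries (SD, n = 3 each). Position 3024 was above the U after it in 2 of the 3 treated libraries, so the order of these neighbours lies within their spread.

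Behind 25S, positions 6650 to 6652 rose. Position 6650 had 496, 514 and 474 CPM in treated libraries against 156, 167 and 156 CPM in untreated ones (log2 change 1.63 ± 0.08). Position 6652 had 97.1 ± 6.25 and 78.0 ± 0.823 CPM (limma adjusted p = 0.0141). Farther on, the 7 remaining positions of that list fell.

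On the gene side of the same edges the rise was larger in CPM. The last position of 18S before its stretch at 0, 2498, had 12157, 12759 and 14684 CPM in treated libraries against 5421, 3947 and 4629 CPM in untreated libraries (log2 change 1.51 ± 0.20). The position before it, 2497, had 6601, 7001 and 7550.1 CPM against 815, 617 and 725 CPM, the largest rise in 18S (log2 change 3.30 ± 0.13). Position 6646 of 25S had 16437, 17703 and 18896 CPM in treated and 3881, 3659 and 3797 CPM in untreated libraries. At 5.8S the step was smaller, with 2709 ± 152 CPM at position 3017 in treated and 1553 ± 166 CPM in untreated libraries (SD, n = 3 each). The last 15 positions of the 3 genes together, a list made after the values were seen, held 6.62% ± 0.411 of all 35S signal in treated libraries and 2.48% in untreated ones. The sequences shown above mark 24 of these 45 positions as called higher, and 13 were called lower. Over all rRNA gene positions, 1867 of 5349 tested were called higher and 1876 lower. Reads of mature rRNA and of nascent RNA at these positions cannot be told apart in the tables.

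**Figure D4:**
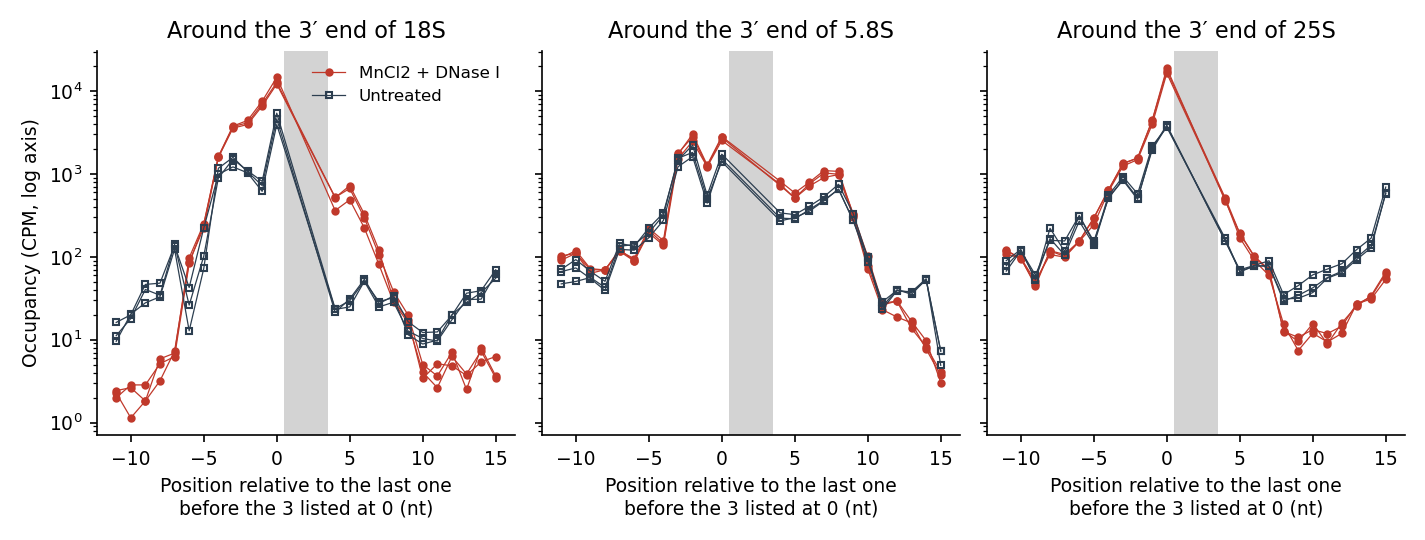
Occupancy (CPM, log axis) around the 3′ ends of 18S, 5.8S and 25S in each of the 3 MnCl2 + DNase I libraries (filled red circles) and the 3 untreated libraries (open squares). Positions are counted from the last one before the 3 listed at 0, which are shaded and not plotted. Treated libraries lie above untreated ones next to the shaded stretch on both sides, and fall below them within 15 positions after 18S and 25S.

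The spacer signal of treated libraries lay in very few positions. In each of the 3 MnCl2 + DNase I libraries 8 positions held 50% of the spacer signal, against 127, 134 and 134 positions in the untreated libraries. With MnCl2 alone 7, 8 and 9 positions held 50%. In ITS1 it took 4, 4 and 5 positions in treated and 47, 50 and 47 in untreated libraries, and in ITS2 4, 3 and 3 against 21 in each untreated library. Each difference gave exact permutation p = 0.1. Without the 30 positions behind the mature ends the numbers over all spacers were 131, 112 and 127 in treated and 127, 137 and 133 in untreated libraries, which overlapped (exact permutation p = 0.3). In ITS2 the direction turned round without them, at 49, 41 and 47 positions in treated and 31, 34 and 30 in untreated libraries.

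**Figure D5:**
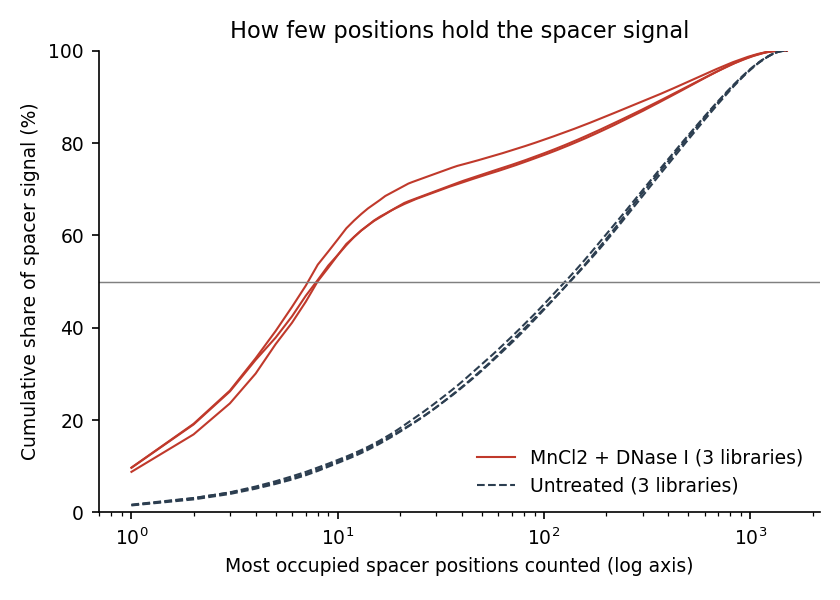
Cumulative share of spacer signal (percent) held by the most occupied spacer positions, counted along a log axis, for the 3 MnCl2 + DNase I libraries (solid red) and the 3 untreated libraries (dashed). The treated curves cross 50% at 8 positions and the untreated curves at 127 to 134.

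Away from the mature 3′ ends the spacers fell nearly everywhere. Outside the 30 positions and the stretches at 0, 1404 of 1454 tested spacer positions fell and 1 rose, and the sum was 16.2-fold lower with treatment. The 1 rise was position 2709 of ITS1, a C, with 123, 136 and 118 CPM in treated libraries against 98.2, 84.4 and 113 CPM in untreated ones (log2 change 0.35 ± 0.12, limma adjusted p = 0.016). Its neighbour 2710, an A, was the most occupied spacer position of treated libraries away from the mature ends, with 269, 272 and 243 CPM against 459, 488 and 589.7 CPM in untreated libraries. Both positions, chosen after their values were seen, stood in the ITS1 window that lost less than those beside it. Their bases are in capitals here.
2709 and 2710 (chrXII:464850-464875): aaaccguuucaauaCAacacacugug

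The largest falls of ITS1 and ITS2 were among the sequences shown above. Position 2617 had 1.71, 0.456 and 0.203 CPM in treated libraries against 215, 238 and 161 CPM in untreated ones (log2 change -6.92 ± 0.27, on 9 reads in the treated group). Position 3150 had 1.71, 1.82 and 2.03 CPM against 403, 346 and 289 CPM (log2 change -6.92 ± 0.16). A lack of overlap between groups was a condition for naming both positions. Position 3158 of ITS2, chosen after its values were seen, kept more, with 45.0 ± 7.85 CPM in treated and 679 ± 78.7 CPM in untreated libraries (SD, n = 3 each). Within-region rescaling left ITS2 with 11 rises and 182 falls, but with 83 and 55 when the positions behind 5.8S were scaled apart, an alternative added after seeing the data.

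Spacer positions just before the mature 5′ ends also fell, by amounts that differed between the 3 ends. Of the last 10 spacer positions before 18S, 5.8S and 25S, 30 in all, 27 fell, 3 were not called and none rose (median log2 change -1.98), beside 1404 falls and 1 rise among the 1454 positions given above. They summed to 104 CPM in treated and 603 CPM in untreated libraries. The 10 before 18S lost less than the rest of ETS1: 7 fell and 3 were not called, and all 10 were called higher once ETS1 was rescaled to the same sum in each library (median within-region log2 change 3.38).

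In ETS2 the most occupied untreated positions lay beside the Rnt1 site and fell. The U at chrXII 460908, the most occupied spacer position of untreated libraries, had 51.5, 57.7 and 57.9 CPM in MnCl2 + DNase I libraries against 1012, 992 and 1197 CPM in untreated libraries, 19.2-fold lower (log2 change -4.23 ± 0.10, limma adjusted p = 3.84e-12). Its neighbour on the 5′ side, position 6661, had 53.5, 62.9 and 65.6 CPM against 579.9, 595 and 695 CPM. Both lie just before the 35 positions marked for Rnt1, 6663 to 6697. All 35 of those fell (median log2 change -2.95), beside 1404 of 1454 tested spacer positions away from the mature 3′ ends (median -2.90). Position 6661 and the U after it are in capitals in the sequence below.
6650 to 6697 (chrXII:460873-460920): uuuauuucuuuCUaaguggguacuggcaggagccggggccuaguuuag
Position 6680 within that stretch had 0.285, 1.82 and 0.608 CPM in treated libraries against 161, 145 and 156 CPM in untreated ones (log2 change -6.43 ± 0.25, on 12 reads in the treated group). At T1 the values were 17.6, 10.0 and 9.93 CPM in treated and 181, 169.5 and 189.9 CPM in untreated libraries. After T1, 92 of 110 tested positions fell and none rose, beside 179 falls and 3 rises among 200 tested over all of ETS2. The sum after T1 was 10.1 CPM in treated and 319.9 CPM in untreated libraries, 31.7-fold lower. It rested on 41, 45 and 41 reads in the treated libraries.

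Several rRNA gene positions changed as strongly as the spacers. Position 6411 of 25S, a U, had 2535, 6261 and 4364 CPM in treated libraries against 119, 125 and 109 CPM in untreated libraries, 37.4-fold higher and the largest rise of any position (log2 change 5.12 ± 0.23, limma adjusted p = 7.72e-10). The treated libraries differed widely among themselves there (SD 1863 CPM), yet all lay far above the untreated ones, and MnCl2 alone gave 4403, 8140.2 and 5996 CPM.
6411 (chrXII:461149-461174): cggugauuucuuugcUccacacaaua
At the start of 5.8S, position 2864 had 89.1 ± 18.9 CPM in treated and 8.43 ± 2.22 CPM in untreated libraries (SD, n = 3 each; log2 change 3.26 ± 0.20). Near the start of 25S, position 3255 had 81.4, 80.4 and 74.3 CPM against 14.5, 11.6 and 13.2 CPM. The position named at the start of 18S went the other way. Position 702 had 2.13 ± 0.491 CPM in treated and 366 ± 34.7 CPM in untreated libraries (log2 change -6.88 ± 0.16), and in the first 20 positions of 18S, a list made after the values were seen, 17 fell and 0 rose. In the first 20 of 5.8S 4 rose and 10 fell, and in those of 25S 8 rose and 7 fell. Over each whole gene, 612 rose and 674 fell of 1798 tested in 18S, 63 and 54 of 156 in 5.8S, and 1192 and 1148 of 3395 in 25S. Inside 18S, position 1899 had 7.97, 4.33 and 3.44 CPM in treated and 465, 415 and 448 CPM in untreated libraries, and position 939, the second largest rise in 18S, had 174, 193 and 183 CPM against 40.4, 42.8 and 39.2 CPM. In 25S the largest falls were 5891, with 2.85 ± 1.03 and 63.1 ± 5.86 CPM, and 3903, with 1.20 ± 0.388 and 32.7 ± 2.18 CPM. In 5.8S they were 2930, with 86.4 ± 4.16 and 366 ± 18.7 CPM, and 2978, with 24.0 ± 2.98 and 91.8 ± 6.66 CPM (SD, n = 3 each), and both of these turned into rises, by 0.55 and 0.69 on the log2 scale, when scaled to the spacer sum.

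Few positions passed the adjusted threshold when the nuclease was the only difference. Between MnCl2 + DNase I and MnCl2 libraries, 16 of 6725 positions tested were called by limma (0.238%), and 1380 (20.5%) had an unadjusted p below 0.05. Of 71 windows of 100 positions, 2 were called (2.82%), at 6648 to 6747 in ETS2, with 1157 ± 30.4 CPM with MnCl2 + DNase I and 1692 ± 233 CPM with MnCl2, and at 5552 to 5651 in 25S, with 14112 ± 262 and 16011 ± 489 CPM (SD, n = 3 each; limma adjusted p = 0.0485 for both). Of the 16 positions, 5 were consecutive in ETS2, position 6658 and the 4 after it, the last of them the U at chrXII 460908. That U had 51.5, 57.7 and 57.9 CPM with MnCl2 + DNase I, against 214, 117 and 159 CPM with MnCl2 (log2 change -1.49, limma adjusted p = 3.20e-04), and position 6661 had 60.7 and 167 CPM on average. All 3 nuclease-treated libraries lay below all 3 MnCl2 libraries at this U. The count itself was unstable: leaving out MnCl2 replicate 1 or 3 gave 233 and 177 calls, leaving out MnCl2 replicate 2 gave 8, and leaving out any MnCl2 + DNase I replicate gave 2, which were 6661 and the U after it each time. With no filter on low positions there were 0 calls, 1272 with an unadjusted p below 0.05. The spacer share was 1.10% with MnCl2 + DNase I and 1.40% ± 0.188 with MnCl2, without overlap (exact permutation p = 0.1), and the shares of ETS1 (0.124% and 0.148%), ITS2 (0.556% and 0.699%) and ETS2 (0.117% and 0.171%) did not overlap either (exact permutation p = 0.1 for each). At the A at 467375, the G at 465067 and position 6411, limma gave adjusted p of 0.788, 0.158 and 0.293 between these groups.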

How the data were processed

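The authors removed duplicate reads by molecular identifier, trimmed them, aligned them to R64 and counted 3′ ends per nucleotide; the submitters' processing notes name cutadapt 3.4, STAR 2.7.1a, SAMtools 1.6 and bedtools 2.28.0. The deposited values are CPM, which the authors scaled to the library's total over the 35S gene up to T1, so a share lost in one region is gained in others. Of 7 deposited tables, 2 were used. Their columns of the authors' own comparisons (group means, medians, ratios, intervals and p-values) were not used.

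Reads were recovered by dividing CPM by the value of 1 read, and 99.9271% to 99.9854% of values per library came out whole within 0.05 of a read. Positions above 0 CPM in at least 3 of the 6 libraries were fitted with limma 3.58.1 (R 4.3.3, eBayes with a trend) on log2(CPM + 1), a scale that understates changes of low positions, with Benjamini-Hochberg adjustment and calls below 0.05. The fit was tested on simulated data. Window sums (100 positions, not crossing regions) and region-rescaled values were fitted the same way. The count test on recovered reads (edgeR 4.0.16) called 5311 positions. The study's methods test each position without pooling the spread; limma was used in its place because there were 3 libraries a side. Shares and numbers of positions were compared with exact two-sided permutation tests (scipy 1.17.1), which for 3 against 3 cannot go below 0.1, adjusted over the 7 regions and over 8 base shares. Named positions were the 2 largest rises and 2 largest falls per region among called positions with groups that did not overlap and a mean of at least 10 CPM in 1 group, the 5 most occupied spacer positions of each group, and 4 positions singled out earlier (chrXII 467375, 465067, 464545 and 460908); others are said to be chosen after their values were seen, or are neighbours of these. The members and lists were chosen with earlier results of these data known. Alternatives were 2 other pseudocounts, other filters, scalings and tools, other windows, the replicate block and leaving out each library.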

Additional observations from a re-analysis of the deposited data

How the results depend on the processing

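CPM are relative to the 35S total, so no value here measures an absolute amount, and the spacers of treated libraries held few reads. With shares taken of the spacer sum, the log2 differences of ITS1, ITS2 and ETS2 turned positive, at 0.77, 1.70 and 0.73, as that denominator itself fell. Scaling to the spacer sum gave 5466 positions higher and 899 lower, and turned positions 2930 and 2978 to 0.55 and 0.69 (log2). The share with uracil next turned to -7.06 percentage points without the 10 positions behind each mature 3′ end, -4.44 among the 75 most occupied positions and -2.53 in ETS1 alone. The ITS2 difference in positions holding 50% of the signal turned to 14 without those 10 positions. Windows called were 38 higher and 21 lower with median-ratio scaling, and 102 (39 higher, 63 lower) of 140 windows of 50 positions. Leaving out 1 library gave 16 to 23 windows called higher and 4764 to 5104 positions called against untreated. Calls against MnCl2 were 7 with a pseudocount of 5 CPM, 0 with no filter (where the U at chrXII 460908 had limma adjusted p = 0.166), 28 with edgeR, and 2 to 233 leaving out 1 library. Causes were not tested where none is named.

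Replicate numbers were shared between groups, but deviations of same-numbered libraries correlated at 0.086, -0.090 and -0.097, so the numbers do not pair them. With a replicate block 5114 positions were called against untreated and 4 against MnCl2. The other 493 alternative values of the 33 named positions kept their direction and their side of the threshold.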
